A study of Rattus norvegicus with 12 samples.

Results

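The genes described here are 36 genes of blood coagulation, of the kinin system and of fibrinolysis, picked by gene symbol from a fixed list of clotting factors, their inhibitors, kininogens and enzymes that dissolve clots. Of the 36 symbols, 34 matched a row among the 16478 gene rows of the liver count files, and Proz and Vwf matched none and are not analysed here. The counts come from 12 obese ZSF1 rats, 6 females and 6 males, all 16 weeks old, untreated and fed chow, with 1 RNA library per liver. ZSF1 rats are bred by crossing rat lines that carry mutations of the leptin receptor. Obese offspring have no intact copy of that receptor, so females and males share its loss, and no lean animal enters the comparison. The labels give no other allele, and each library is taken as 1 animal. The question set by the design is how liver transcripts differ between the sexes.

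Coagulation runs as a chain of proteases, mostly made by hepatocytes, in which each factor cuts and activates the next until thrombin turns fibrinogen into fibrin. Several of these proteases need vitamin K for a carboxylation that lets them bind membranes, while serpins, the protein C pathway and tissue factor pathway inhibitor brake the chain, and plasmin dissolves the clot. Kininogens carry bradykinin, which plasma kallikrein releases, and rats also have T-kininogens, which are acute phase proteins in that species.

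Libraries held 6763879 to 24837602 counts over genes in females and 11381428 to 29232871 in males. Levels are counts per 1000000 (CPM), scaled by the TMM factors of edgeR, as mean ± SD over 6 animals per sex. Fold changes are females over males, and a gene is said to differ where the Benjamini-Hochberg adjusted p of edgeR's quasi-likelihood test over all 9943 tested genes was under 0.05. The labelled tissue showed its markers: albumin, Alb, stood at 205679 ± 29942 CPM in females and 161851 ± 22385 CPM in males, and of 11 tested hepatocyte markers 1 was higher in females and 3 in males. Male 4 stands apart from the other males in several of these genes, so results that rest on it are given with and without it.

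Of the 34 genes with a row, 33 passed the filter on low counts. Plaur, the urokinase receptor gene, did not, with 8 counts over all females and 9 over all males. Females had the higher level of 9 of the 33 tested genes and males of 9, and 15 did not pass the test. Over all tested genes the shares were 20.5% toward females and 22.7% toward males, 43.2% in either direction. The 33 genes, at 54.5%, lie near that background, and the count is no result about them. Counts given for smaller groups and for marker lists are to be read beside these shares. The differences were modest. The median absolute log2 fold change was 0.28 over the 33 genes and 0.24 over all tested genes. Only F3 differed by more than 2-fold and passed the test, where 5.75% of all tested genes did. The animals of the sexes did not overlap for 11 of the 33 genes, against 22.8% of all tested genes. Without male 4, 12 were higher in females and 7 in males, against 24% and 22.4% of all tested genes in that fit.

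**Figure D1:**
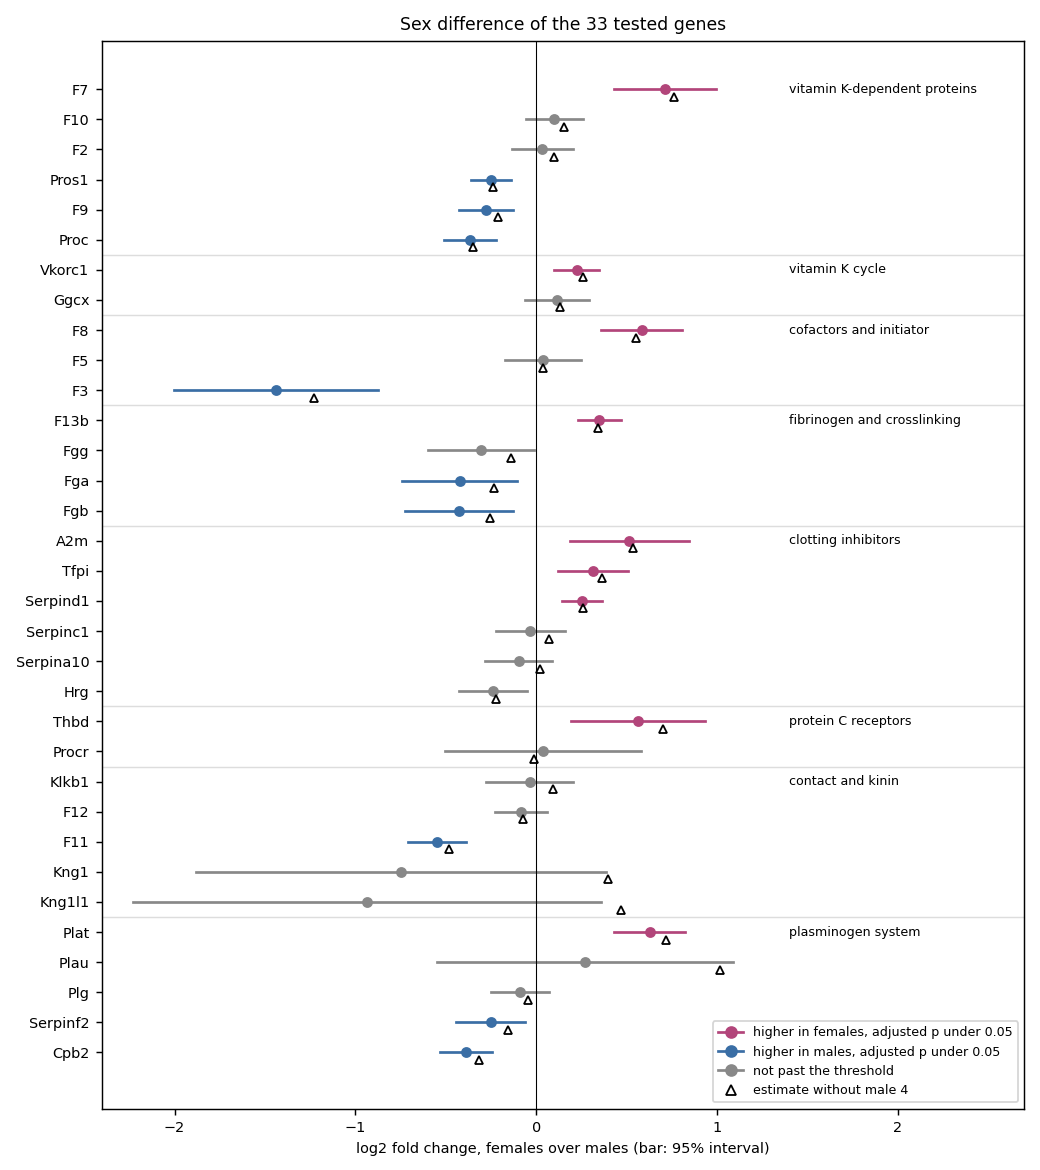
Log2 fold change, females over males, of the 33 tested genes grouped by role. Filled points are for all 12 animals, bars for the approximate 95% interval, and open triangles for the estimate without male 4. Pink marks the 9 genes higher in females and blue the 9 higher in males, and the triangles of Kng1, Kng1l1 and Plau lie far from their points.

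The vitamin K-dependent proteins split between the sexes. Of the 6 tested, F7 was higher in females, F9, Proc and Pros1 were higher in males, and F2 and F10 did not pass the test. F7 encodes factor VII, the protease that joins with tissue factor to start the chain. Its lowest, median and highest values were 53.0, 64.8 and 104 CPM in females, against 40.2, 42.5 and 49.6 CPM in males. All 6 females lay above all 6 males, and the females were spread more widely, with a coefficient of variation of 27.4% against 8.21% in males. The difference was 1.64-fold (log2 0.71, SE 0.144, adjusted p = 0.00141). Female 12 held the highest level at 104 CPM.

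F9 encodes factor IX, the protease missing in hemophilia B. It averaged 831 ± 45.3 CPM in females and 1009 ± 104 CPM in males and did not overlap between the sexes (log2 -0.28, SE 0.0758, adjusted p = 0.00819). Proc encodes protein C, which shuts down the chain by cutting factors V and VIII, and Pros1 encodes its cofactor protein S. The lowest, median and highest values of Proc were 270.2, 290.3 and 336 CPM in females, against 351, 382 and 429.6 CPM in males. Every male lay above every female, a 1.29-fold difference (log2 -0.37, SE 0.0728, adjusted p = 0.00104). Pros1 averaged 214 ± 12.5 CPM in females and 254 ± 10.9 CPM in males, again without overlap (1.19-fold higher in males, adjusted p = 0.00268). Pros1 was also among the least variable of the genes, with a coefficient of variation of 5.83% in females and 4.27% in males. F2, which encodes prothrombin, averaged 1823 ± 156 CPM in females and 1779 ± 185 CPM in males (log2 0.03, 95% interval -0.13 to 0.20). F10, which encodes factor X, averaged 506 ± 54.5 CPM in females and 472 ± 36.9 CPM in males (log2 0.10, 95% interval -0.06 to 0.26).

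The enzymes that supply reduced vitamin K and use it were measured beside these proteins. Vkorc1, the epoxide reductase that warfarin blocks, was 1.17-fold higher in females, at 209.6 ± 13.6 CPM in females and 179 ± 12.3 CPM in males (log2 0.22, SE 0.0633, adjusted p = 0.0102). The sexes overlapped through female 7, at 188 CPM. Ggcx, the carboxylase itself, averaged 91.6 ± 13.5 CPM in females and 84.8 ± 7.82 CPM in males and did not pass the test (log2 0.11, 95% interval -0.06 to 0.29, adjusted p = 0.335).

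Among the initiator and the cofactors, F3 and F8 moved in opposite directions. F3 encodes tissue factor, the membrane protein that starts clotting where blood meets other tissue, and its level in these livers was low, with 3 to 13 counts per library in females and 11 to 37 in males. RefSeq also lists F3 as an older name of Cntn1, which has a row of its own in the files. In CPM the lowest, median and highest values of F3 were 0.301, 0.405 and 0.788 CPM in females, against 0.910, 1.12 and 2.03 CPM in males. The sexes did not overlap and F3 was 2.71-fold higher in males (log2 -1.44, SE 0.287, adjusted p = 0.00105). The ratio of summed counts, males over females and corrected for library sizes scaled by the TMM factors, was 2.71. Its exact 95% binomial interval was 1.91 to 3.90, which covers counting error only.

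F8 encodes factor VIII, the cofactor missing in hemophilia A, which in mouse and human comes mainly from endothelial cells. From lowest over median to highest, F8 stood at 7.90, 9.72 and 12.1 CPM in females, against 5.65, 6.81 and 7.81 CPM in males. All females lay above all males (log2 0.58, SE 0.114, adjusted p = 0.000875). F5, the cofactor of factor X, averaged 176 ± 32.1 CPM in females and 172 ± 14.9 CPM in males and did not pass the test (log2 0.04, 95% interval -0.17 to 0.25).

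Plat, Thbd and Tfpi, which endothelial cells are known to make, were higher in females together with F8. Plat encodes tissue plasminogen activator, the protease that turns plasminogen into plasmin on fibrin. Its lowest, median and highest values were 14.4, 16.1 and 19.4 CPM in females, against 9.52, 10.2 and 13.6 CPM in males, and no male reached the lowest female. Plat was 1.54-fold higher in females (log2 0.63, SE 0.0999, adjusted p = 0.000174). Thbd encodes thrombomodulin, the receptor through which thrombin activates protein C. It averaged 5.38 ± 1.11 CPM in females and 3.62 ± 0.998 CPM in males (1.48-fold, log2 0.56, SE 0.189, adjusted p = 0.0257), and the sexes overlapped. Leaving out female 7, female 10, male 1, male 2 or male 6 ended the Thbd call (adjusted p up to 0.0616).

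Tfpi, the inhibitor of the tissue factor complex, averaged 16.6 ± 1.72 CPM in females and 13.4 ± 1.85 CPM in males (1.24-fold higher in females, log2 0.31, SE 0.0980, adjusted p = 0.0176), with overlap. Procr, the endothelial protein C receptor gene, had 6 to 26 counts per library in females and 9 to 27 in males, and a difference was not detectable at this depth (95% interval -0.50 to 0.58 on the log2 scale). Endothelial markers differed in the same direction: females had the higher level of 9 of 10 tested markers and males of 0, by the same test. The summed level was 116 to 140.0 CPM in females and 45.4 to 113 CPM in males. Without male 4 the counts were 9 and 0. Within the males the genes did not all follow the markers. In male 4 the summed level was 100 CPM, F8 was the lowest of the males, Plat and Thbd were the highest and Tfpi lay within their range. The marker with the largest difference was Flt4, at 5.49 ± 0.856 CPM in females and 2.03 ± 0.804 CPM in males. None of the 10 markers with a row was at 0. The part of endothelial RNA in the differences of F8, Plat, Thbd and Tfpi was not tested, and in bulk liver a change in the number of cells of a type and a change in RNA per cell cannot be told apart.

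**Figure D2:**
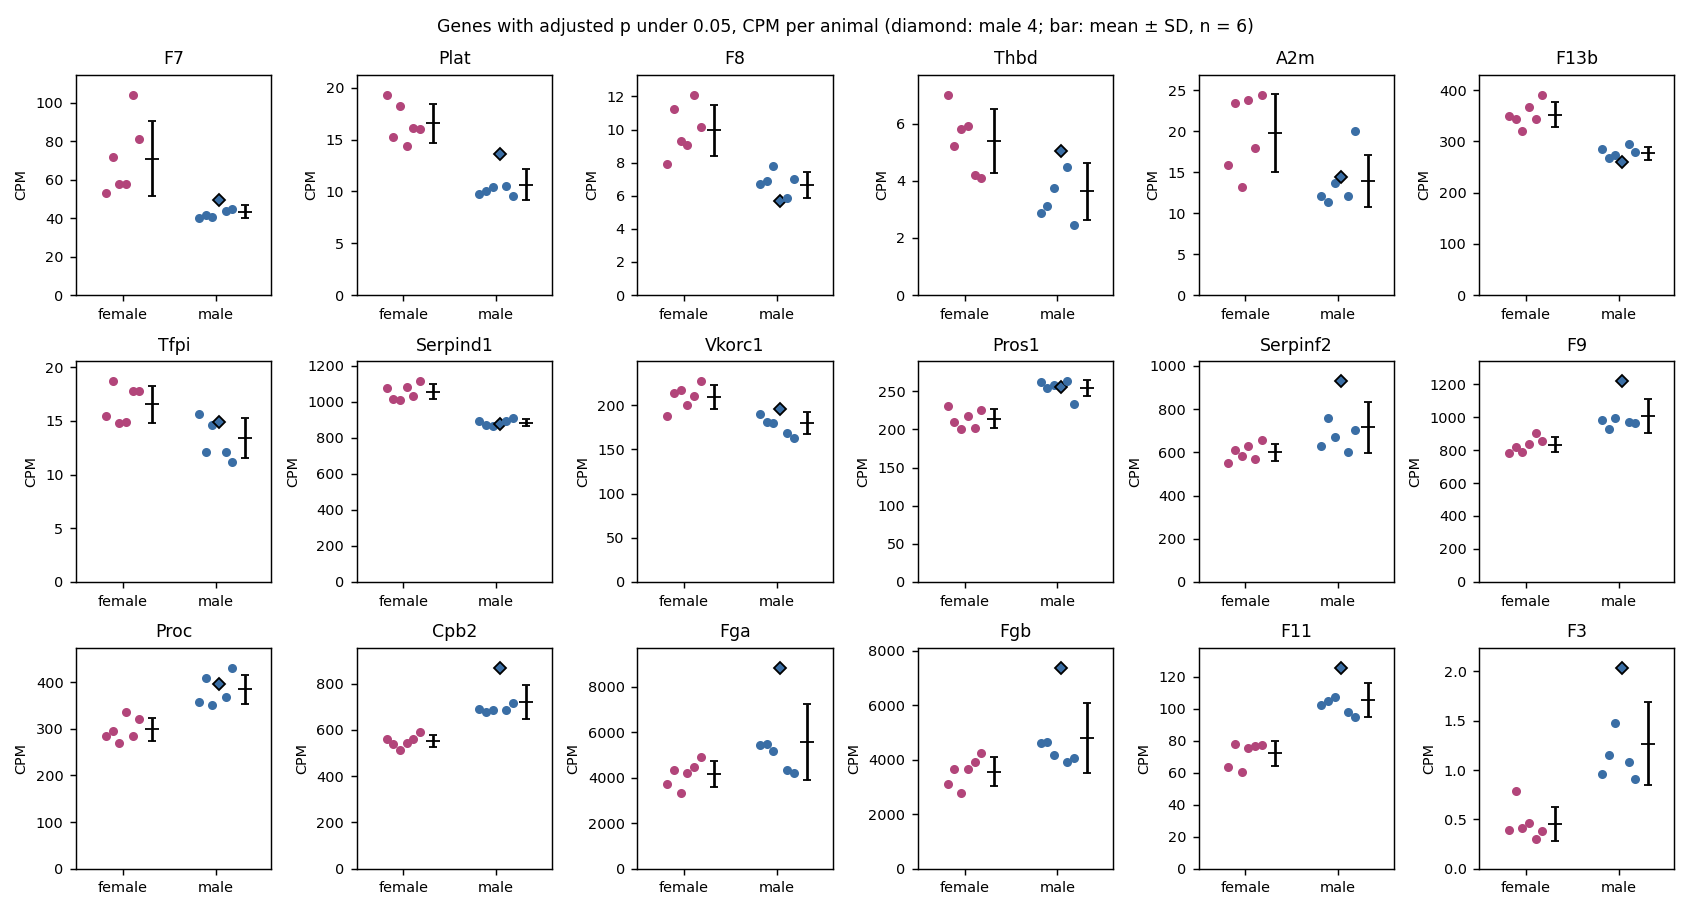
CPM of each animal for the 18 genes with adjusted p under 0.05, ordered from the largest difference toward females (F7) to the largest toward males (F3), with mean ± SD bars. Males are blue and male 4 is the diamond, which lies above the other 5 males for F9, Cpb2, Fga, Fgb and Plat, among others.

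Fibrinogen is a hexamer of alpha, beta and gamma chains from the neighbouring genes Fga, Fgb and Fgg. The lowest, median and highest values of Fga were 3335, 4274 and 4909.8 CPM in females, against 4226, 5304 and 8816 CPM in males. Those of Fgb were 2792, 3645 and 4255 CPM in females, against 3911, 4390.0 and 7347.5 CPM in males. Those of Fgg were 2665, 3337 and 3903 CPM in females, against 3285, 3817 and 6232 CPM in males. The highest male value was that of male 4 for each chain, and the sexes overlapped. Fga (log2 -0.42, SE 0.162, adjusted p = 0.0472) and Fgb (log2 -0.43, SE 0.152, adjusted p = 0.0339) were higher in males, and Fgg did not pass the test (log2 -0.31, SE 0.149, adjusted p = 0.11). Without male 4 the difference shrank to log2 -0.24 for Fga, which no longer passed (adjusted p = 0.0771), and to log2 -0.26 for Fgb (adjusted p = 0.0477). The Fgb call also ended without female 7, 8, 9 or 10 (adjusted p up to 0.0731), and the Fga call ended in 14 of 21 alternatives (adjusted p up to 0.0974).

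The proportions of the chains do not depend on how libraries are scaled. The ratio of Fga to Fgg counts was 1.21 to 1.29 in females and 1.29 to 1.41 in males, with means of 1.25 ± 0.0260 in females and 1.35 ± 0.0581 in males, SD over 6 animals each (2-sided exact permutation p = 0.00433, with overlap). The ratio of Fgb to Fgg counts was 1.04 to 1.103 in females and 1.11 to 1.24 in males, where every male lay above every female (exact permutation p = 0.00216, the smallest that 6 animals against 6 can give). Both were 0.00649 after adjustment over the 3 ratios tested. Without male 4 the exact p-values were 0.00433 for Fga to Fgg and 0.00216 for Fgb to Fgg. These fibrinogen ratios were chosen after their values were seen.

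F13b, the carrier subunit of factor XIII, which crosslinks fibrin, was higher in females. From lowest over median to highest it ran at 319, 346 and 391 CPM in females, against 260.3, 276 and 295 CPM in males. All females lay above all males (1.27-fold, log2 0.35, SE 0.0610, adjusted p = 0.000372), and male 4 was the lowest of the males at 260.3 CPM.

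Promoters of the fibrinogen genes and of the genes RefSeq now names Kng1, Kng2 and Kng2l1 are shown because the rows of fibrinogen and of the kininogens Kng1 and Kng1l1, with Plau and F3, stood furthest above the other males in male 4. The RefSeq promoter of Plau, not printed here, holds none of the forms searched for below. F3 had no RefSeq promoter among those searched. RefSeq lists Kng1l1 as an older name of the present Kng1, and Kng1 as an older name of both Kng2 and Kng2l1. The promoter of the present Kng1 is therefore not shown to belong to the row Kng1, and no kininogen window can be tied to a row with certainty. The sequences are from RefSeq, build GRCr8, and cover 250 bases before to 50 bases after the annotated start, written 5′ to 3′ along the gene. Capitals mark CTGGGAA on either strand, the core of the element through which interleukin 6 acts on acute phase genes. The windows are Fga at chr2:170671919-170672218, forward strand, Fgb at chr2:170700826-170701125, reverse strand, Fgg at chr2:170652833-170653132, forward strand, Kng1 at chr11:91340099-91340398, reverse strand, Kng2 at chr11:91418220-91418519, forward strand, and Kng2l1 at chr11:91483169-91483468, forward strand.
Fga: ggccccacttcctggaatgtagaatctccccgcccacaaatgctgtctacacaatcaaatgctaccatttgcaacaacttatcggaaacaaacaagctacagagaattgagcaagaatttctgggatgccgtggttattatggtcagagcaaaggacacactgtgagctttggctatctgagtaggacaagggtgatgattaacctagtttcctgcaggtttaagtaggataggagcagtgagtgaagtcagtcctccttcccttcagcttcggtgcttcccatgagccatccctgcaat
Fgb: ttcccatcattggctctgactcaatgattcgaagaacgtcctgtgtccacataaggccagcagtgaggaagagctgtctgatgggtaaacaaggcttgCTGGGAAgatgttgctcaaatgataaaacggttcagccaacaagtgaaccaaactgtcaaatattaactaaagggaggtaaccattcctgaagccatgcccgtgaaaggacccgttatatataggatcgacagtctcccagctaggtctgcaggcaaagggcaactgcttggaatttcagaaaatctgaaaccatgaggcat
Fgg: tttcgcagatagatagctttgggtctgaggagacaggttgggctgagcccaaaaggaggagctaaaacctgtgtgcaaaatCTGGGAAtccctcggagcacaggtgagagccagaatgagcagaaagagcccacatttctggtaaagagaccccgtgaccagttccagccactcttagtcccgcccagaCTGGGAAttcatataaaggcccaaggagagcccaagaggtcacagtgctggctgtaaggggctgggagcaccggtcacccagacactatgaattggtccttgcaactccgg
RefSeq Kng1: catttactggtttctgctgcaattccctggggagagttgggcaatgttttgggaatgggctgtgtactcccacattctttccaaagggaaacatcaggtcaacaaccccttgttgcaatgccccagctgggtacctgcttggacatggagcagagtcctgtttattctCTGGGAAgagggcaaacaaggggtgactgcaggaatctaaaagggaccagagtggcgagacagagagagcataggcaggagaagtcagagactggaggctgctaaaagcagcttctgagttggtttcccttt
RefSeq Kng2: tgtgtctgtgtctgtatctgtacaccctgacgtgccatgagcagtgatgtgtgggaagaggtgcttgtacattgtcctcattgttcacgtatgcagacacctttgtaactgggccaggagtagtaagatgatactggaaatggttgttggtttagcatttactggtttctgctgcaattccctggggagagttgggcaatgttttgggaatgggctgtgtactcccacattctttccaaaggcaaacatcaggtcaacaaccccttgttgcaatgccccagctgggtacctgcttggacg
RefSeq Kng2l1: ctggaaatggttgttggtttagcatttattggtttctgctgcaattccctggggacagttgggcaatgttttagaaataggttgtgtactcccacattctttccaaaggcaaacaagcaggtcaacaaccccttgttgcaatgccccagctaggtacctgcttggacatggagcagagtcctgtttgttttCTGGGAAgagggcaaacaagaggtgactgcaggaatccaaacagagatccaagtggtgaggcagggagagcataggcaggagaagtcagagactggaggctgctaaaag
CTGGGAA begins 152 bases before the start of Fgb, 169 and 61 before that of Fgg, 82 before that of Kng1 and 59 before that of Kng2l1, and these letters are not in the Fga and Kng2 windows shown. Of all 33469 RefSeq promoters of 300 bases, 11.3% hold CTGGGAA. Of the 36 symbols, 25 matched a present RefSeq gene with a promoter, and 7 of these hold it at any annotated start, a count by gene where the share of all is by promoter. The 7 are F9, Fgb, Fgg, the present Kng1, Plg, Serpinc1 and Tfpi, the last not at every start. Fga and Kng2l1 are shown at the first of 2 annotated starts. TTCNNNGAA, a form bound by STAT factors, is in 8.87% of all promoters and in 4 of the 25 genes, F9, Fga, Fgb and Pros1. It begins at -242 from the start in the Fga window and at -223 in the Fgb window. Kng2l1, which is not among the 25, holds it at -61, where it overlaps CTGGGAA. Other forms searched on both strands were TTNNGNAAT for C/EBP factors (12.3% of all, 5 of the 25), CAAAGTCCA for HNF4 (0.391%, 1 of the 25) and a form of the HNF1 site (0.23%, 3 of the 25, namely F13b, Fgb and Plg). The HNF4 match is in Proz, which has no row in the counts. A match is a description of the letters and not of binding. Of these windows, Kng1 and Kng2l1 were 92.5% identical over 279 aligned positions, Kng1 and Kng2 99.3% over 144, and Kng2 and Kng2l1 94.6% over 167.

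Among the 34 genes with a row, Kng1 and Kng1l1 gave the widest spread, and male 4 set it. Their coefficients of variation in males were 133% and 152%. In the count files the kininogen genes are named Kng1, Kng1l1 and Kng2. Given the changed names, which gene model stood behind the row Kng1, and which rows are T-kininogen, is uncertain. How reads of these related genes were divided is uncertain as well. The lowest, median and highest values of the row Kng1 were 1946, 2270.2 and 2464 CPM in females, against 1469, 1591 and 13845 CPM in males. Those of Kng1l1 were 1188, 1336 and 1481 CPM in females, against 818, 905 and 10464 CPM in males. Male 4 was the highest animal for both.

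Over the other 5 males Kng1 averaged 1699.8 ± 376 CPM and Kng1l1 973 ± 237 CPM (SD, n = 5), so that male 4 was 8.14-fold and 10.7-fold above them. With all 12 animals neither passed the test (Kng1 log2 -0.75, SE 0.578, adjusted p = 0.327, Kng1l1 log2 -0.94, SE 0.661, adjusted p = 0.281). Without male 4 the direction turned, and both passed as higher in females (Kng1 log2 0.40, adjusted p = 0.0146, Kng1l1 log2 0.47, adjusted p = 0.00774). In that comparison 4 of the 5 males lay below every female, and male 1, at 2364 CPM of Kng1 and 1391 CPM of Kng1l1, lay within the range of the females.

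The row Kng2, which was not among the 36 symbols, was higher in females with all 12 animals and without overlap, at 222 ± 12.2 CPM in females and 122 ± 31.9 CPM in males (1.83-fold, log2 0.87, SE 0.131, adjusted p = 0.000122). In male 4 it stood at 182 CPM, against 94.4 to 129 CPM in the other 5 males. The share of Kng1l1 in the counts of Kng1l1 plus Kng1 was 36.8% to 38.1% in females and 35.8% to 37.0% in 5 males, and 43.0% in male 4. The means, 37.6% ± 0.511 in females and 37.5% ± 2.77 in males (SD, n = 6 each), lay 0.127 percentage points apart (2-sided exact permutation p = 0.981, and 0.981 adjusted over the 3 ratios). Without male 4 the share was higher in females by 1.24 percentage points (exact permutation p = 0.00649, not adjusted).

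**Figure D3:**
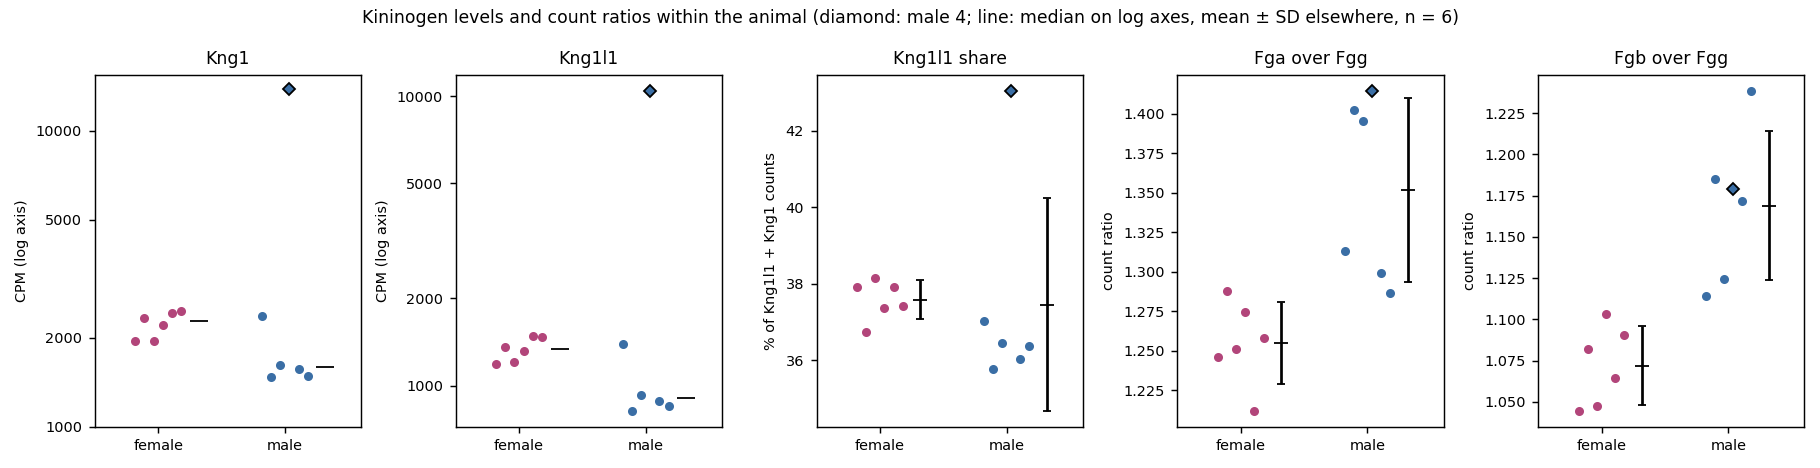
From left, CPM of Kng1 and Kng1l1 on log axes with the median as a line, the share of Kng1l1 in Kng1l1 plus Kng1 counts, and the count ratios Fga to Fgg and Fgb to Fgg with mean ± SD, each point an animal. Male 4, the diamond, is the highest animal in the kininogen panels. It is also the highest for Fga to Fgg, at 1.415 against up to 1.402 in the other males, while its Fgb to Fgg ratio lies within their range.

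The proteases of the contact system, which act on or with kininogen, were measured beside it. F11 encodes factor XI, which links the contact system to factor IX. The lowest, median and highest values of F11 were 60.6, 76.2 and 78.2 CPM in females, against 94.7, 104 and 125 CPM in males. Every male lay above every female, and F11 was 1.46-fold higher in males (log2 -0.55, SE 0.0819, adjusted p = 0.000106). F12, which encodes factor XII, averaged 704 ± 47.7 CPM in females and 745 ± 62.4 CPM in males (log2 -0.08, 95% interval -0.23 to 0.06). Klkb1, which encodes plasma prekallikrein, averaged 195 ± 23.9 CPM in females and 200.1 ± 42.1 CPM in males (log2 -0.04, 95% interval -0.28 to 0.20), with 278 CPM in male 4. Neither passed the test.

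Of the 6 genes grouped here as clotting inhibitors, Serpind1, Tfpi and A2m were higher in females and 0 were higher in males. Proc and Pros1 of the protein C pathway, which also brakes the chain, were higher in males and are described above. Serpind1 encodes heparin cofactor II, a serpin that inactivates thrombin. Serpind1 in its lowest, median and highest animals stood at 1013, 1055 and 1114 CPM in females, against 865, 885 and 913 CPM in males, without overlap (1.19-fold, log2 0.25, SE 0.0570, adjusted p = 0.00241). It varied little, with coefficients of variation of 3.88% in females and 2.05% in males. Serpinc1, the antithrombin gene, averaged 2315 ± 152 CPM in females and 2368 ± 371 CPM in males (95% interval -0.22 to 0.16 on the log2 scale), and Serpina10, the inhibitor that works with protein Z, averaged 308 ± 14.3 CPM in females and 329 ± 58.0 CPM in males (95% interval -0.28 to 0.09 on the log2 scale). Neither passed the test, and in both male 4 was the highest animal. Hrg, a histidine-rich plasma protein that binds heparin and plasminogen, averaged 1572 ± 245 CPM in females and 1855 ± 48.0 CPM in males (log2 -0.24, adjusted p = 0.0596). Female 13 had the lowest Hrg at 1169 CPM.

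A2m encodes alpha-2-macroglobulin, a broad protease trap that is a strong acute phase protein in rat. Its lowest, median and highest values were 13.2, 20.7 and 24.5 CPM in females, against 11.3, 12.9 and 19.99 CPM in males, and it was 1.43-fold higher in females (log2 0.52, SE 0.169, adjusted p = 0.0239), with overlap. Male 4 held 14.4 CPM, within the 11.3 to 19.99 CPM of the other 5 males, and the highest male was male 6. Leaving out female 8, female 10, female 13, male 1 or male 2 ended the call (adjusted p up to 0.056). Related macroglobulin rows were also higher in females: Mug1 was 1.52-fold, A1i3 1.44-fold and Mug2 1.32-fold higher, while Pzp averaged 6459 ± 1023 CPM in females and 6340.0 ± 1193 CPM in males and did not pass. RefSeq lists A1i3 as an older name of Mug1, so which gene each of those 2 rows counts is uncertain.

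In the plasminogen system Plat was higher in females, and Cpb2 and Serpinf2 were higher in males. Plg encodes plasminogen and averaged 2603 ± 253 CPM in females and 2770.4 ± 187 CPM in males, which did not pass the test (log2 -0.09, 95% interval -0.25 to 0.07). Cpb2 encodes a carboxypeptidase that slows fibrinolysis by trimming fibrin. From lowest over median to highest, Cpb2 stood at 513, 551 and 589.6 CPM in females, against 677, 689 and 866 CPM in males, and every male lay above every female (1.31-fold, log2 -0.39, SE 0.0722, adjusted p = 0.000622). Serpinf2, the plasmin inhibitor alpha-2-antiplasmin, averaged 601 ± 39.6 CPM in females and 715 ± 118 CPM in males (log2 -0.25, SE 0.0972, adjusted p = 0.0476), with overlap. Without male 4 it did not pass (log2 -0.15, adjusted p = 0.0934), and the call was lost in 17 of 21 alternatives (adjusted p up to 0.131).

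Plau encodes urokinase, a plasminogen activator that works through the receptor encoded by Plaur. In the lowest, median and highest animals it stood at 1.66, 2.75 and 3.46 CPM in females, against 1.11, 1.43 and 6.53 CPM in males, and the highest male was male 4, above all females. With all 12 animals Plau did not pass (log2 0.27, SE 0.417, adjusted p = 0.634). Without male 4 it was higher in females (log2 1.01, adjusted p = 0.0005), and in that comparison every female lay above every male. Macrophage markers followed a like pattern: with all animals females were higher for 3 of 12 tested markers and males for 0, and without male 4 females were higher for 11 and males for 0. Their summed level was 250.1 to 369 CPM in females, 146 to 262 CPM in 5 males and 565 CPM in male 4, and no marker with a row was at 0. Their part in the Plau values was not tested.

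Male 4 lay above all other 5 males in 22 of the 33 tested genes, against 28.6% of all tested genes. It lay below all of them in 2, F8 and F13b, against 3011 of all 9943 tested genes. The excess was largest for Kng1l1, Kng1 and Plau (4.77-fold), followed by F3 (1.82-fold), Fga (1.79-fold), Fgb (1.72-fold) and Fgg (1.69-fold). Serpinc1, Serpina10, Serpinf2, Klkb1 and Thbd were 1.38-fold to 1.51-fold above. Proc, Pros1, F12, Hrg, A2m, Ggcx and Serpind1 were 0.987-fold to 1.04-fold of the mean of the others. The 34 genes together took 2.73% to 3.10% in females and 2.86% to 3.29% in 5 males, and 6.24% in male 4.

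Most acute phase genes were high in male 4. In it 17 of 19 genes of the acute phase list with a row lay above all other males, against 28.6% of all tested genes. Hamp lay below them, at 235 CPM against 251 to 506 CPM, and Stat3 within their range. Crp and Steap4 were only 1.16-fold and 1.18-fold of the mean of the other 5 males. Hamp, Stat3, Crp and Steap4 were named after their values were seen. The summed level of the list was 32906 to 39733 CPM in females, 38895 to 43183 CPM in 5 males and 93119.5 CPM in male 4. Orm1, which encodes an acute phase glycoprotein, stood at 9559 CPM in male 4 and 1359 to 1599 CPM in the other 5 males. Hp, the haptoglobin gene, stood at 30749 CPM in male 4 and 10869 to 12271 CPM in the other 5 males. Serpina3n, a serpin gene of the acute phase, stood at 7389 CPM in male 4 and 3253 to 4071 CPM in the other 5 males. Of the 18 tested genes of the list 1 was higher in females and 7 in males, and the same counts held without male 4. Over all tested genes the shares were 20.5% and 22.7%, and 24% and 22.4% without male 4. The same 3 genes were higher in males with all 12 animals (Orm1 log2 -1.54, SE 0.503, adjusted p = 0.0278, Hp log2 -0.90, SE 0.242, adjusted p = 0.00878, Serpina3n log2 -1.10, SE 0.180, adjusted p = 0.000247). Without male 4 the estimates were log2 -0.61, adjusted p = 1.79e-05 for Orm1, log2 -0.52, adjusted p = 1.91e-05 for Hp and log2 -0.87, adjusted p = 4.76e-06 for Serpina3n. The part of these genes in the values of male 4 was not tested.

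**Figure D4:**
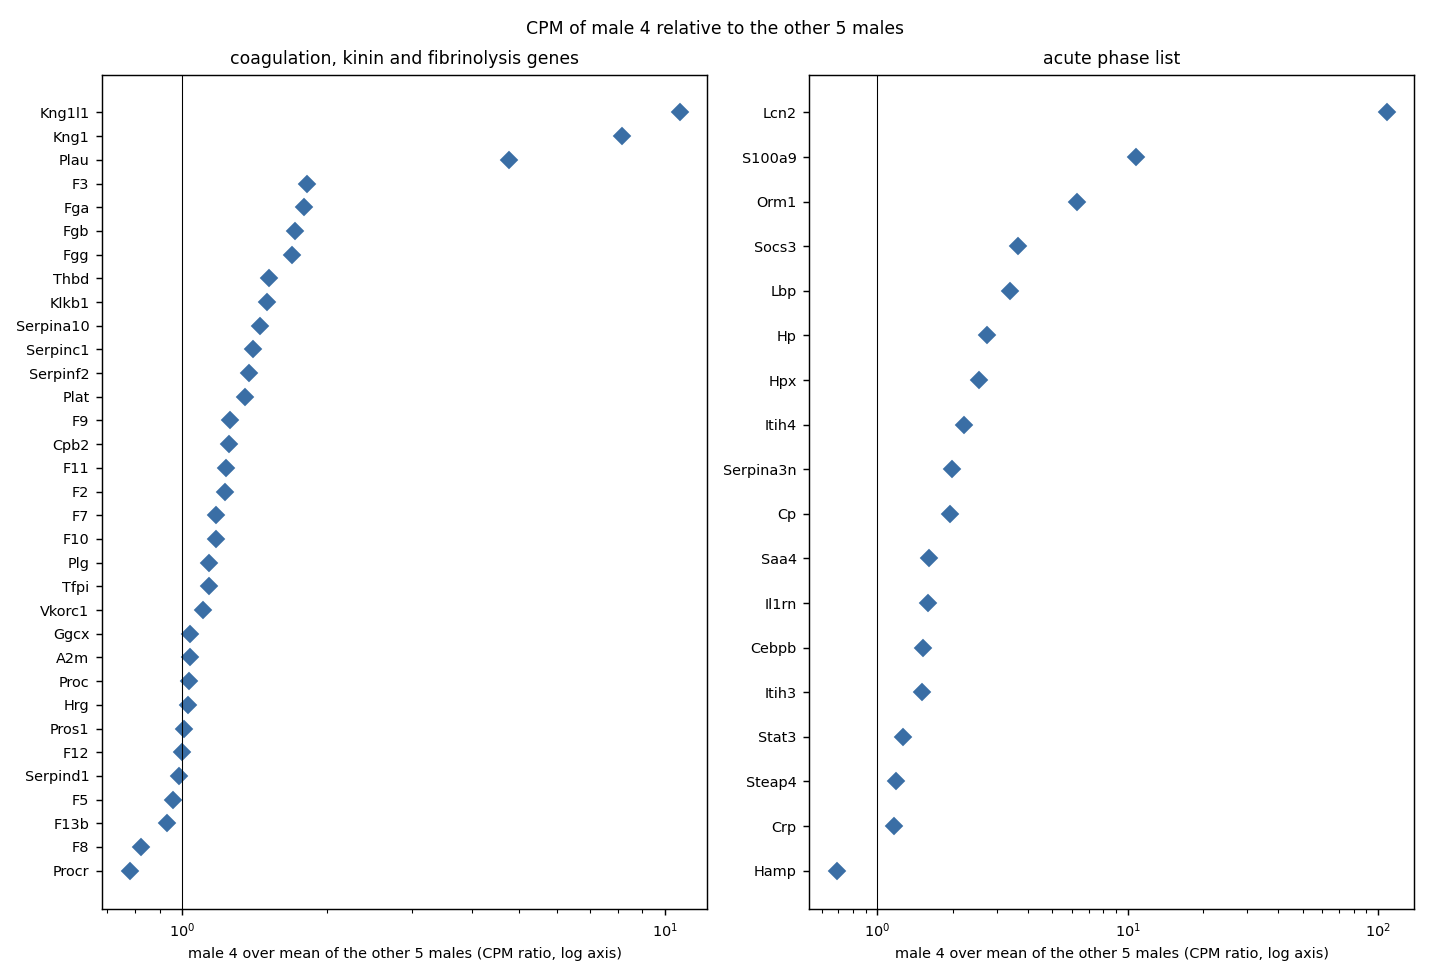
Ratio of the CPM of male 4 to the mean of the other 5 males on a log axis, at left for the 33 tested genes and at right for the 18 tested genes of the acute phase list. Kng1l1 and Kng1 lie at 10.7-fold and 8.14-fold, fibrinogen chains between 1.69-fold and 1.79-fold, and A2m, Proc and F12 near the line of equal levels.

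Of 46 other genes of these pathways, 43 had a row and 35 were tested, with 12 higher in females and 8 in males (median log2 fold change 0.10), and 16 and 7 without male 4. The shares of all tested genes were 20.5% and 22.7%, and 24% and 22.4% without male 4. Fgl1, a fibrinogen-like protein gene, was 3.81-fold higher in males, at 169 ± 52.8 CPM in females and 646 ± 614 CPM in males (log2 -1.93, SE 0.471, adjusted p = 0.00629), with 1885 CPM in male 4. Without male 4 it was still higher in males (log2 -1.22, adjusted p = 0.00131). Anxa2, whose protein binds plasminogen and tissue plasminogen activator at the cell surface, was 2.52-fold higher in males (log2 -1.33, SE 0.198, adjusted p = 0.000121), while S100a10, its partner in that complex, was 1.49-fold higher in females (log2 0.57, SE 0.197, adjusted p = 0.0295). Ace, the peptidase that degrades bradykinin, was 3.57-fold higher in females at a low level (1.44 ± 0.444 CPM in females and 0.403 ± 0.159 CPM in males), and Hgf, a growth factor related to plasminogen in sequence, was 2.31-fold higher (7.25 ± 2.17 CPM in females and 3.20 ± 0.901 CPM in males). Lman1, which carries factors V and VIII out of the endoplasmic reticulum, was 1.44-fold higher in females without overlap (log2 0.52, SE 0.124, adjusted p = 0.00373), and its partner Mcfd2 did not pass (253 ± 11.9 CPM in females and 273 ± 10.1 CPM in males). Serping1, the C1 inhibitor that restrains kallikrein and factor XII, was 1.41-fold higher in males (log2 -0.50, SE 0.163, adjusted p = 0.0234), with 1888 CPM in male 4. Without male 4 it was higher in males by less (log2 -0.26, adjusted p = 0.00189). Serpinb2 and Bdkrb1 were at 0 counts in all 12 libraries, which allows up to 0.444 CPM in the shallowest of them. F2rl3, Adamts13 and Stab2 matched no row and are not analysed here. Lman1, S100a10, Serping1, Mcfd2, Kng2, Mug1, Mug2 and A1i3 were named after their values were seen.

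Of 16 liver transcription factors, 5 were higher in females and 3 in males, against 20.5% and 22.7% of all tested genes. That count lies near the background and is no result about the list. The differences were 3.71-fold for Onecut1, 2.71-fold for Esr1 and 1.58-fold for Stat5b toward females and 2.79-fold for Nr0b2 toward males. Among markers of other cells, platelet genes were near the floor, with 1 higher in females and 0 in males of 2 tested, a summed level of 4.15 to 6.06 CPM in females and 2.36 to 5.10 CPM in males, and Gp1bb at 0. The gene that passed was Clec1b, at 2.75 ± 0.530 CPM in females and 1.65 ± 0.392 CPM in males. Pf4, named after its values were seen, averaged 0.884 CPM in females and 0.913 CPM in males and did not pass. Red cell markers summed to 329.7 to 782 CPM in females and 571 to 1392 CPM in males, with 0 higher in females and 3 in males of 5 tested, and 0 and 0 without male 4. The estimates of these 3 genes moved little: with all animals and without male 4 they were log2 -0.77 and -0.73 for Hba-a2, -0.80 and -0.77 for Hbb, and -0.75 and -0.69 for Hbb-b1 (adjusted p without male 4 from 0.0566 to 0.0815). The only neutrophil marker tested, S100a9, was higher in males (log2 -2.62, SE 0.853, adjusted p = 0.0261, and without male 4 log2 -1.14, adjusted p = 0.0149), and the summed neutrophil level was 0.691 to 2.88 CPM in females, 2.38 to 3.67 CPM in 5 males and 27.4 CPM in male 4. Stellate cell markers gave 2 higher in females and 1 in males of 7, and bile duct markers 0 and 0 of 3. The part of these cells in the values above was not tested.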

How the data were processed

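The authors deposited 1 file of unnormalized whole-number read counts per library, without pooling. The submitters' processing notes name rat build rn4, Bowtie2 version 2.0.2 and DESeq. The counting program and annotation are not named in the sources used here. Ambiguous reads and alignments that were not unique have rows of their own, but how completely such reads were set apart is not given. The labels name a TruSeq RNA kit and the names of the count files carry the word strand, but the strand setting is not given either, so whether reads of overlapping or antisense genes were kept apart is unknown. In each file 5 rows name no gene: no_feature, ambiguous, too_low_aQual, not_aligned and alignment_not_unique. They held 27.1% to 31.7% of all counts and were left out.

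Genes were kept by filterByExpr (count minimum 10, total minimum 15), scaled by TMM and tested with the robust quasi-likelihood F test of edgeR 4.0.16 (R 4.3.3), females against males, with Benjamini-Hochberg adjustment over 9943 genes. Standard errors were derived from the F statistic and intervals from the standard errors with a normal quantile. The intervals are therefore approximate and somewhat narrow. For Fgg the interval was -0.60 to -0.015, while the unadjusted p of the quasi-likelihood test was 0.0578. A floor of 3 counts equals 0.103 to 0.444 CPM, which covers counting error only. The procedure was tested on simulated counts. DESeq2 1.42.0, limma 3.58.1 voom, other scalings and filters, and fits without each animal were alternatives, and the fibrinogen ratios were added after seeing the data. Labels give animal numbers but no litter or batch. Male numbers all lie below female numbers, so a batch in that order and sex cannot be told apart. The genes and lists were chosen with earlier results of these data known. Each of the 36 symbols is accounted for. From other lists up to 4 called genes with the largest change, and the most abundant uncalled related gene (Pzp), were named by rule, and others are said to be chosen after their values were seen. RefSeq names, present or older, matched all 36 symbols, and RefSeq promoters (GRCr8) were aligned with Biopython 1.88.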

Additional observations from a re-analysis of the deposited data

Results flagged for a closer look

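Of 70 sets of 6 values examined (34 genes and the kininogen share in each sex), 15 held a sample whose gap to its nearest neighbour divided by the range was above Dixon's 95% critical value. Chance flags about 1 in 20 such sets, and genes measured in the same animal are not independent. Male 4 was the sample in 12 of the 15.

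Male 4 was the highest male, in CPM with the range of the other 5 males in brackets, for Kng1 13845 (1469 to 2364), Kng1l1 10464 (818 to 1391), Plau 6.53 (1.11 to 1.59), Fga 8816 (4226 to 5507), Fgb 7347.5 (3911 to 4654), Fgg 6232 (3285 to 4139.9), Serpinc1 3113 (2136 to 2330.0), Serpina10 444 (293 to 330.5), F9 1217 (929 to 994), Cpb2 866 (677 to 716) and Plat 13.6 (9.52 to 10.6). Its share of Kng1l1 in Kng1l1 plus Kng1 counts, 43.0%, was above the 35.8% to 37.0% of the other 5 males. Among the other values, male 6 had the lowest Pros1 of the males, 233 CPM against 255 to 263 CPM, and the highest A2m, 19.99 CPM against 11.3 to 14.4 CPM. Female 8 had the highest F3 of the females, 0.788 CPM against 0.301 to 0.459 CPM, which rests on 13 counts.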

How the results depend on the processing

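Of the 18 genes that passed the test, 13 kept direction and call in every alternative that gave a value: F7, Plat, F8, F13b, Tfpi, Serpind1 and Vkorc1 toward females and F3, F11, Cpb2, Proc, F9 and Pros1 toward males. F3 gave no value under the filter at a mean of 1 CPM. Calls were lost in 17 of 21 alternatives for Serpinf2, 14 for Fga, 5 for A2m, 5 for Thbd and 4 for Fgb. Hrg passed, higher in males, with DESeq2, with limma-voom and in both fits without female 12 (lowest adjusted p = 0.013). Over all alternatives 7 to 12 of the 33 genes were higher in females and 6 to 10 in males, and 3855 to 4634 genes were called in all. DESeq2 gave no adjusted p for Kng1 and Kng1l1.

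The sign of the log2 fold change turned for 7 genes that had not passed the test. Without male 4, and without male 4 and female 12 together, it was 0.40 and 0.37 for Kng1, 0.47 and 0.44 for Kng1l1, 0.091 and 0.069 for Klkb1, 0.071 and 0.060 for Serpinc1, and 0.020 and 0.00071 for Serpina10. It was 0.0054 and 0.011 for Klkb1 without female 10 or 9. For F5 it was -0.045 without female 12, -0.041 without male 4 and female 12, and -0.0016 without male 2. For Procr it was -0.039, -0.061, -0.063, -0.012 and -0.019 without female 13, female 7, male 3, male 4 and male 5 in that order. With 1 animal left out at a time, the log2 fold changes of these genes ran from -0.91 to 0.40 for Kng1, -1.12 to 0.47 for Kng1l1, -0.077 to 0.091 for Klkb1, -0.062 to 0.071 for Serpinc1, -0.13 to 0.020 for Serpina10, -0.045 to 0.11 for F5 and -0.063 to 0.17 for Procr. The female minus male share of Kng1l1 ran from -0.208 to 1.24 percentage points with 1 animal left out, and was 1.18 (exact permutation p = 0.0159) without male 4 and female 12. The female minus male differences of the Fga to Fgg and Fgb to Fgg ratios ran from -0.110 to -0.0845 and from -0.108 to -0.0830. The genes with few counts, F3, Procr, Plau and Thbd, are limited by depth. No paired analysis was possible because the animal numbers are not shared between the sexes.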
